A study of Mus musculus with 16 samples.

Results

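The genes of the hypoxia and glycolysis response described here are 10 mouse genes: Hif1a, Egln3, Vegfa, Adm, Ndrg1, Slc2a1, Hk2, Pfkfb3, Ldha and Pdk1. They were chosen by symbol, with earlier results of these data known. Each of the 10 symbols matched 1 of the 50600 rows of the count table through its Ensembl identifier, and all 10 were among the 22155 genes tested. The RNA came from epidermal cells of the footpad of female C57/B6J mice, which received 1 of 2 purified diets from 5 wk of age for 3 wk. The AhR-poor diet was AIN-93M without added ligand of the aryl hydrocarbon receptor (AhR), and the I3C diet was the same food with 200 ppm indole-3-carbinol, a plant compound from which AhR ligands form. The footpad was injected with 50 μl of PBS (vehicle) or of PBS with 50 μg of papain, a protease used as a model allergen, and the epidermis was separated with dispase after 6 hr. No mouse carried a transgene. Each of the 4 groups (vehicle or papain, on the I3C or the AhR-poor diet) held 4 libraries, 1 per mouse, which carry the codes T100 to T115.

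The transcription factor HIF is a pair of an oxygen-labile α subunit, encoded by Hif1a or Epas1, and the stable partner ARNT. In cells with enough oxygen, the prolyl hydroxylases encoded by the Egln genes mark the α subunit for destruction by the VHL complex. In cells short of oxygen, and in many inflamed tissues, HIF raises genes for angiogenic signals, glucose uptake and lactate production, and keratinocytes of the poorly supplied epidermis are known for strong glycolysis. ARNT is also the partner that AhR needs to bind DNA, so both pathways draw on the same protein.

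The totals of the 16 libraries ran from 22500821 to 51844375 counts, and every member had counts in every library. Levels are given as CPM, the share of a library's counts scaled to a fixed total after TMM normalization. Markers of basal and suprabasal keratinocytes dominated all groups, with summed levels of the 6 basal markers between 20470 and 36416 CPM, whereas Krt9, the keratin that defines palm and sole epidermis, had group means between 0.311 and 6.52 CPM. Markers of other cells were present, and several of their sums differed between the diets. The summed level of 9 dermal fibroblast markers was 11.9 to 25.8 CPM in the 8 I3C libraries, a median of 121.3 and a highest value of 190.4 CPM in the AhR-poor vehicle libraries and 277.2 to 666.4 CPM in the AhR-poor papain libraries. The summed level of 7 neutrophil markers went from 1.64 to 4.77 CPM with vehicle to 51.2 to 92.7 CPM with papain on the I3C diet, and from 9.76 to 12.3 CPM to 98.6 to 668.3 CPM on the AhR-poor diet. Diet went with cage, so the effects of diet and cage cannot be told apart, and in these bulk samples fewer cells of a type and less RNA per cell cannot be told apart either.

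Per kilobase of exon, Ldha, the lactate dehydrogenase subunit that turns pyruvate into lactate, stood at the top of the members in every group. Its mean level was 155 ± 27.9 CPM per kb (SD, n = 4) in the I3C vehicle group, 294.7 ± 25.8 in the I3C papain group, 142.8 ± 9.02 in the AhR-poor vehicle group and 260.0 ± 13.5 in the AhR-poor papain group. No library of any group had Ldha below the next member. Pfkfb3, which makes the activator of phosphofructokinase, stood at the bottom, with means between 1.81 and 4.90 CPM per kb. Between them, Egln3, Slc2a1, Hif1a, Ndrg1 and Hk2 came before Adm, Vegfa and Pdk1 with vehicle, and most neighbours in that order overlapped between libraries. Beside the gap under Ldha, the exceptions with vehicle were Pdk1 above Pfkfb3 on both diets, and Slc2a1 above Hif1a on the AhR-poor diet. Papain moved Slc2a1 and Hif1a ahead of Egln3 on both diets, but in the AhR-poor papain group alone did neither of those neighbouring pairs overlap. Ranks in the middle of the order depended on the exon length used, and with the longest transcript in place of all exons Ndrg1 stood at rank 3 or 4 in each group.

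The stretches just upstream of the members' starts were read from RefSeq (GRCm38.p6) because 5 of the members rose and 1 fell with papain on both diets. A window of 250 bases before a start was found for 9 of the 10 members, with 13 windows in all, and none was found for Ndrg1. The letters ACGTG and GCGTG, the core to which HIF binds, were searched on both strands, and the palindrome CACGTG counts once on each strand. GCGTG is also the core of the element to which AhR binds, so a GCGTG match is not particular to HIF. All 9 members held a match in at least 1 window, in 11 of the 13 windows. Of 32851 such windows of all genes, 38.6% held either motif, 16.6% ACGTG and 28.2% GCGTG. The members were chosen as hypoxia response genes, so the shares are given as description only. A match describes the letters and does not show a bound site. The Hif1a and Ldha windows lie inside the extent annotated for those genes, which have transcripts that start farther upstream. For Vegfa, Pfkfb3 and Pdk1, 1 of the 2 windows likewise lies inside the gene. Vegfa matched only in that inner window, where 218 of the 250 bases were exonic. Its window before the outermost start held no match. In 1 Pfkfb3 window 148 bases were exonic, and in the inner Pdk1 window all 250 were. Shown are Hif1a and Ldha, which rose on both diets, Pdk1, which fell on both, and Adm, which passed the test on neither, with the matched letters in capitals, or their reverse complement where the match is on the other strand.
Hif1a, chr12:73907617-73907866, plus strand: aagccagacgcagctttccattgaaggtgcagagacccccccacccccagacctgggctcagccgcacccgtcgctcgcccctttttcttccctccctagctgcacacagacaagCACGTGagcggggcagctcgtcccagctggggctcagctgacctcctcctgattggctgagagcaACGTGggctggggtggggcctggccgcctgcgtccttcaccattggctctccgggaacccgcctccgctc
Ldha, chr7:46845554-46845803, plus strand: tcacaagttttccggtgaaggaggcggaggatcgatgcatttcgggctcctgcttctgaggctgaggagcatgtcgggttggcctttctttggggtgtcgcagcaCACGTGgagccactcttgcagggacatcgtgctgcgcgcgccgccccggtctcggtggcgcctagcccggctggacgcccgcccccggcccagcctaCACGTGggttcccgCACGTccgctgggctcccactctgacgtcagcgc
Pdk1, chr2:71872974-71873223, plus strand: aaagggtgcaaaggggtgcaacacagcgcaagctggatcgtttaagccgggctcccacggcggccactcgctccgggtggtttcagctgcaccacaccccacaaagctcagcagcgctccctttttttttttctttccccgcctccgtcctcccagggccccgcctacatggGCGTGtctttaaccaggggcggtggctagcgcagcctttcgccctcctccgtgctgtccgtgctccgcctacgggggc
Adm, chr7:110627407-110627656, plus strand: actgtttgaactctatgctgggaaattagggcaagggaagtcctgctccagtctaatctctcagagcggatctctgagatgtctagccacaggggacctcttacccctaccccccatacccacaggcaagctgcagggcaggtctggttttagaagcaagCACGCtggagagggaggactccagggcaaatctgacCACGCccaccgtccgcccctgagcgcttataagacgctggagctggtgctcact
The Hif1a window held 3 matches to ACGTG, the Ldha window shown 5, the Pdk1 window shown 1 match to GCGTG and the Adm window 2. The other Ldha window, not shown, held 1 match to GCGTG and none to ACGTG, and the other Pdk1 window held neither. Genes that rose, that fell and that did neither held the core letters.

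**Figure D1:**
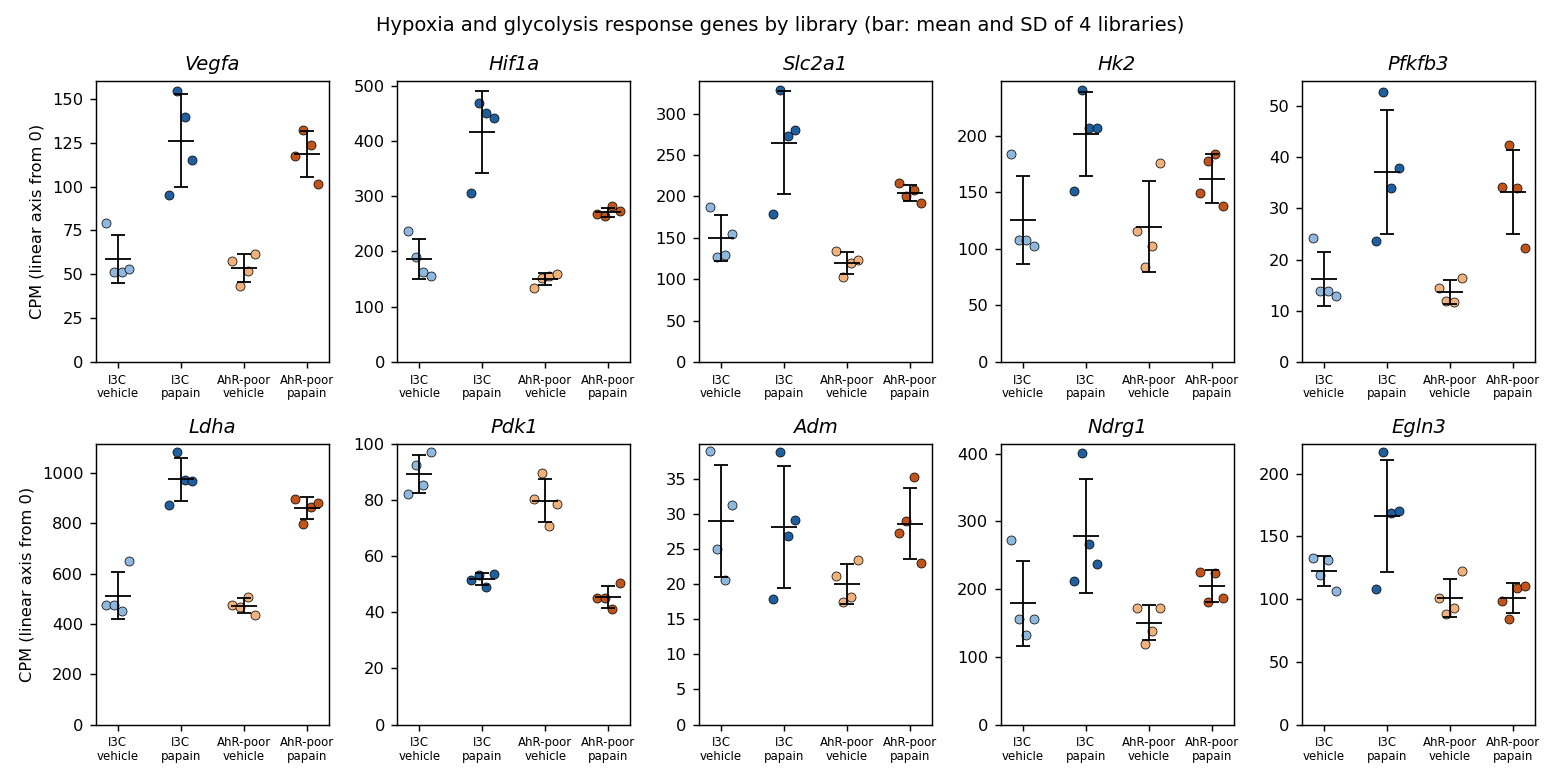
Level of each of the 10 members in the 16 libraries, in TMM-scaled CPM on an axis that starts at 0 in each panel. Points are libraries (n = 4 per group) and bars are group means, and Hif1a, Ldha and Vegfa of both papain groups lie above all libraries of their vehicle groups whereas Pdk1 lies below.

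To see how the allergen changed these genes, papain libraries were compared with vehicle libraries on each diet. A gene is said here to have risen or fallen where the adjusted p-value of the edgeR quasi-likelihood test was below 0.01, and to be called where its log2 fold change was also beyond 1. Sums of cell-type markers moved with papain too. The 6 eccrine sweat gland markers went from 1125 ± 71.1 to 1717 ± 233.1 CPM (SD, n = 4) on the I3C diet and from 973.7 ± 58.69 to 1365 ± 80.45 CPM on the AhR-poor diet, and the 5 T cell markers from 93.6 ± 12.9 to 170.2 ± 8.68 CPM and from 91.4 ± 12.8 to 199.4 ± 28.7 CPM, without overlap on either diet. The sum of the basal keratinocyte markers went from 31189 ± 3515 to 24245 ± 1039 CPM on the I3C diet, without overlap, and from 27063 ± 2838 to 23205 ± 2037 CPM on the AhR-poor diet, with overlap. The part of these shifts in the members' changes was not tested. On the I3C diet 5 of the 10 members rose (Vegfa, Hif1a, Slc2a1, Pfkfb3 and Ldha), where 12.7% of all genes tested did, and 1 fell (Pdk1), where 12.9% did. On the AhR-poor diet 5 rose, where 12.4% of all genes did, and 1 fell, where 10.1% did; they were the same 6 genes. Called as higher were 3 members on the I3C diet (Vegfa, Hif1a and Pfkfb3), against 3.69% of all genes, and 2 on the AhR-poor diet (Vegfa and Pfkfb3), against 6.04%. No member was called as lower on either diet, against 5.29% and 2.42% of all genes. The papain libraries lay above all vehicle libraries for 3 members on the I3C diet (16.2% of all genes) and for 6 on the AhR-poor diet (17% of all genes), and below them for 1 member on each (17.3% and 16% of all genes). The median log2 fold change of the 10 members was 0.75 on the I3C diet and 0.64 on the AhR-poor diet, beside -0.04 and -0.00 for all genes. Because the members were chosen with earlier results of these data known, the shares and medians of all genes are given as description only. The count of 3 on the I3C diet fell to 1 without T113, the library with the highest level of 9 of the 10 members in its group: Vegfa then had a log2 fold change of 0.98 (adjusted p = 0.00021) and Pfkfb3 of 0.96 (adjusted p = 0.0065, same test), and Hif1a remained.

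Hif1a (ENSMUSG00000021109, mm10 chr12:73901375-73947530, plus strand) encodes the oxygen-labile subunit itself. Its level in the I3C vehicle libraries was 236.7, 189.7, 162.8 and 156.1 CPM, and in the I3C papain libraries 306.2, 468.1, 450.2 and 440.9 CPM. In the AhR-poor vehicle libraries it was 134.1, 151.1, 156.2 and 159.9 CPM, and in the AhR-poor papain libraries 267.1, 263.4, 281.5 and 272.4 CPM. Papain and vehicle libraries did not overlap on either diet, and T106 lay well below the other I3C papain libraries. Hif1a rose by a log2 fold change of 1.16 ± 0.13 (SE, n = 4 per group) on the I3C diet (edgeR adjusted p = 1.4e-06) and of 0.85 ± 0.13 on the AhR-poor diet (edgeR adjusted p = 5.5e-05). The annotation places 148 exonic bases of Hif1a under another gene of the same strand and 330 under genes of the opposite strand, and whether strand was used in counting is not given in the sources used here.

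Its paralog Epas1, which encodes HIF-2α, went the other way. It stood at 58.4 to 100.9 CPM in the I3C vehicle libraries and 16.5 to 23.2 CPM in the I3C papain libraries, and at 61.2 to 109.2 and 21.2 to 31.8 CPM on the AhR-poor diet, with no overlap on either. Its log2 fold change was -2.06 ± 0.20 (edgeR adjusted p = 1.0e-06) on the I3C diet and -1.69 ± 0.20 (edgeR adjusted p = 1.1e-05) on the AhR-poor diet. Arnt, the shared partner, had log2 fold changes of 0.00 and -0.16, and Vhl, which tags hydroxylated HIF for degradation, of 0.18 and 0.13, none of which passed the test. Of the 13 genes of the HIF system, 1 rose (Hif1a) and 3 fell (Epas1, Egln2 and Siah1a) on each diet. Of all genes, 12.7% rose and 12.9% fell on the I3C diet, and 12.4% and 10.1% on the AhR-poor diet. The median log2 fold change of the HIF system was 0.00 on the I3C and -0.08 on the AhR-poor diet.

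Egln3 (ENSMUSG00000035105, chr12:54178981-54203860, minus strand) encodes the hydroxylase PHD3, which is both a brake on HIF and a target of it. Its level was 132.6, 119.7, 131.2 and 106.2 CPM in the I3C vehicle libraries and 108.05, 217.3, 168.9 and 170.3 CPM in the I3C papain libraries. On the AhR-poor diet it was 100.6, 87.9, 93.1 and 122.3 CPM with vehicle and 98.7, 84.5, 109.2 and 110.1 CPM with papain. T106 lay among the vehicle libraries, and the AhR-poor groups overlapped throughout. With papain minus vehicle, log2 fold changes were 0.44 ± 0.16 on the I3C diet (edgeR adjusted p = 0.047) and -0.01 ± 0.16 on the AhR-poor diet (adjusted p = 0.99), neither of which passed. Without T106 the value on the I3C diet was 0.60 (adjusted p = 9.8e-04) and passed. Egln1, which encodes the main oxygen-sensing hydroxylase, had log2 fold changes of -0.02 and -0.16.

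Vegfa (ENSMUSG00000023951, chr17:46016993-46032369, minus strand) encodes the growth factor that draws blood vessels towards tissue short of oxygen. Its level was 79.3, 51.2, 51.1 and 53.2 CPM in the I3C vehicle libraries and 95.1, 154.7, 139.9 and 115.3 CPM in the I3C papain libraries. On the AhR-poor diet it was 57.7, 43.2, 52.0 and 61.6 CPM with vehicle and 117.6, 132.3, 123.7 and 101.3 CPM with papain. All papain libraries were higher than all vehicle libraries of their diet. Vegfa rose by a log2 fold change of 1.10 ± 0.17 on the I3C diet (edgeR adjusted p = 7.1e-05) and of 1.15 ± 0.17 on the AhR-poor diet (edgeR adjusted p = 6.6e-05), about 2.15-fold and 2.21-fold.

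Of the 10 genes of the VEGF family and its receptors, 3 rose on the I3C diet (Vegfa, Pgf and Nrp2) and 4 on the AhR-poor diet (the same 3 and Flt1), where 12.7% and 12.4% of all genes did. Vegfb fell on both, where 12.9% and 10.1% of all genes did. Pgf, a relative of Vegfa that binds the receptor encoded by Flt1, went up on the I3C diet from 1.58 ± 1.01 to 6.19 ± 1.88 CPM (SD, n = 4), and from 2.32 ± 0.64 to 10.5 ± 2.85 CPM on the AhR-poor diet. Nrp2, a coreceptor, rose from 7.83 ± 1.22 to 35.9 ± 9.0 CPM on the I3C diet and from 16.3 ± 2.83 to 33.4 ± 5.48 CPM on the AhR-poor diet. Flt1 had a log2 fold change of 1.05 (edgeR adjusted p = 0.018) on the I3C diet and 1.88 (edgeR adjusted p = 2.2e-04) on the AhR-poor diet, and it passed on the I3C diet too when T101, T106 or T108 was left out. The mean sum of endothelial markers went from 1.78 to 1.27 CPM on the I3C diet and from 21 to 43.7 CPM on the AhR-poor diet. The part of endothelial cells in the Flt1 result was not tested. Kdr, the main signalling receptor of endothelial cells, was at 0.105 ± 0.068 CPM in the I3C papain and 4.89 ± 2.18 CPM in the AhR-poor papain libraries, and papain passed the test for it on neither diet.

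Adm (ENSMUSG00000030790, chr7:110627661-110629820, plus strand) encodes adrenomedullin, a peptide that widens vessels and is often used as a hypoxia reporter. It stood at 38.9, 25.0, 20.7 and 31.3 CPM in the I3C vehicle libraries and at 17.8, 38.8, 26.8 and 29.1 CPM in the I3C papain libraries. On the AhR-poor diet it was at 21.2, 17.4, 18.1 and 23.5 CPM with vehicle and 27.3, 28.9, 35.3 and 23.0 CPM with papain. The groups overlapped on both diets, fully on the I3C diet and by 1 library on the AhR-poor diet. For Adm the log2 fold change was -0.04 ± 0.22 on the I3C diet (95% interval -0.51 to 0.43) and 0.51 ± 0.22 on the AhR-poor diet (0.04 to 0.99), with edgeR adjusted p = 0.91 and 0.093. Its receptor Calcrl had a log2 fold change of -1.39 on the I3C diet (edgeR adjusted p = 0.0021) and 0.10 on the AhR-poor diet, at levels between 0.638 and 2.97 CPM, and the accessory protein Ramp2 passed on neither, although on the AhR-poor diet its log2 fold change was 1.30 (adjusted p = 7.0e-04) without T100 and 1.08 (adjusted p = 0.0063) without T112.

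Ndrg1 (ENSMUSG00000005125, chr15:66929318-66969640, minus strand) encodes a stress protein that is a common HIF target and goes with differentiation in epithelia. Its level was 271.9, 155.8, 132.5 and 155.9 CPM in the I3C vehicle libraries and 211.3, 400.5, 267.2 and 236.5 CPM in the I3C papain libraries. It was 172.8, 119.6, 137.8 and 172.7 CPM with vehicle and 225.6, 181.0, 224.4 and 186.5 CPM with papain on the AhR-poor diet. On the I3C diet T108 overlapped the papain libraries, whereas the AhR-poor groups did not overlap. For Ndrg1 the log2 fold change was 0.64 ± 0.23 (edgeR adjusted p = 0.044) and 0.44 ± 0.23 (edgeR adjusted p = 0.17). It passed neither, but without T108 the value on the I3C diet was 0.91 (adjusted p = 0.0019) and passed. The annotation has 556 exonic bases of Ndrg1 under genes of the opposite strand.

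Of the 24 HIF target genes, 9 rose and 4 fell on the I3C diet (12.7% and 12.9% of all genes did), and 7 rose and 4 fell on the AhR-poor diet (12.4% and 10.1%). Car9, the carbonic anhydrase that is a standard tissue marker of hypoxia, rose from 1.88 to 2.70 CPM to 8.94 to 27.8 CPM on the I3C diet and from 1.5 to 2.82 CPM to 5.29 to 11.8 CPM on the AhR-poor diet. Plod2, a collagen-modifying enzyme, rose with log2 fold changes of 1.09 and 1.74, the first of which was 0.95 without T113. The mean sum of dermal fibroblast markers went from 22.4 to 17.7 CPM on the I3C diet and from 135.5 to 521 CPM on the AhR-poor diet. The part of these cells in the rise of Plod2 was not tested. Angptl4, a secreted regulator of lipid uptake, had log2 fold changes of 0.50 and 1.17 and passed on the AhR-poor diet (edgeR adjusted p = 0.0056), but not without any 1 of T101, T102, T103, T104, T105 and T107. Bnip3 had log2 fold changes of 0.70 (edgeR adjusted p = 0.031) and 0.25, and Ankrd37 of -0.00 and 0.04, none of which passed, whereas Zfp395 fell with -1.59 and -1.22. The list's median log2 fold change was 0.42 and 0.26.

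**Figure D2:**
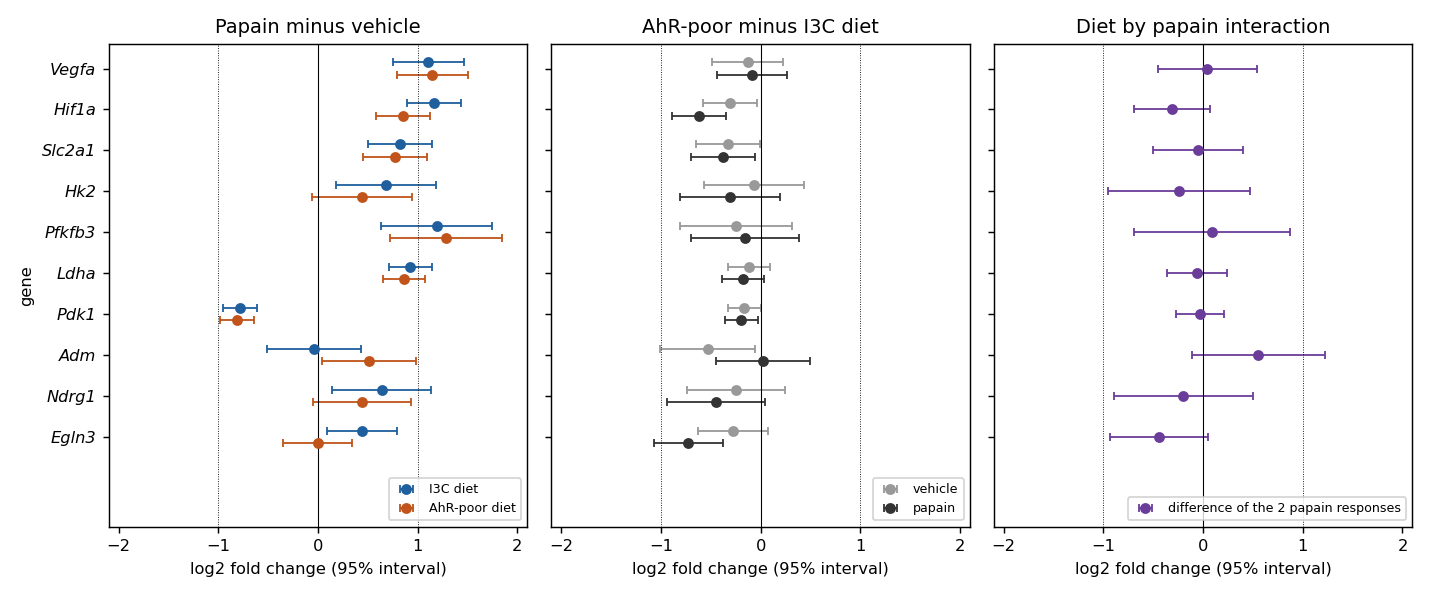
Log2 fold change of each member with its 95% confidence interval from edgeR, for papain minus vehicle on each diet in the left panel, for the AhR-poor minus the I3C diet with each injection in the middle panel, and for the difference of the papain responses between the diets in the right panel. Dotted lines mark a log2 fold change of 1 and of -1. The papain values of Vegfa, Hif1a, Slc2a1, Pfkfb3 and Ldha lie above 0 and those of Pdk1 below 0 on both diets. In this fit of all 16 libraries, 19 of the 20 diet values lie below 0, and the sign of several changed with 1 library left out.

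Glucose enters keratinocytes mainly through GLUT1, encoded by Slc2a1 (ENSMUSG00000028645, chr4:119108711-119137983, plus strand). Its level was 187.3, 127.2, 129.7 and 155.1 CPM in the I3C vehicle libraries and 179.0, 328.2, 272.5 and 280.2 CPM in the I3C papain libraries. On the AhR-poor diet it was 133.9, 102.5, 119.1 and 122.9 CPM with vehicle and 216.0, 200.2, 207.2 and 192.5 CPM with papain. T106 lay below T108 on the I3C diet, and the AhR-poor groups did not overlap. Slc2a1 rose by a log2 fold change of 0.82 ± 0.15 (edgeR adjusted p = 4.0e-04) and 0.77 ± 0.15 (edgeR adjusted p = 8.5e-04), short of 1 on both diets. Some of its exonic bases lie under a gene of the opposite strand.

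Hk2 (ENSMUSG00000000628, chr6:82725025-82774454, minus strand) encodes the inducible hexokinase that traps glucose in the cell. It stood at 184.2, 107.9, 107.5 and 102.2 CPM in the I3C vehicle libraries and 150.7, 240.3, 206.8 and 207.0 CPM in the I3C papain libraries. With the AhR-poor diet it stood at 115.9, 83.8, 102.6 and 176.2 CPM and at 149.7, 177.7, 183.5 and 137.7 CPM. A vehicle library reached into the papain range on each diet, T108 and T103. The log2 fold change was 0.68 ± 0.24 (edgeR adjusted p = 0.036) and 0.44 ± 0.23 (edgeR adjusted p = 0.18), which did not pass. Without T108 the value on the I3C diet was 0.93 (adjusted p = 0.0036) and passed. Hk1, the constitutive hexokinase, rose from 130.3 ± 10.4 to 183.0 ± 16.6 CPM on the I3C diet, and its values of 125.8 ± 7.13 and 145.5 ± 11.7 CPM on the AhR-poor diet did not pass.

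Pfkfb3 (ENSMUSG00000026773, chr2:11471433-11554077, minus strand) makes the signal that speeds phosphofructokinase, and its papain fold change was the largest of the members in the fit of all libraries, by less than its standard error on both diets. Its level was 24.1, 13.9, 13.9 and 13.0 CPM in the I3C vehicle libraries and 23.6, 52.8, 33.9 and 38.0 CPM in the I3C papain libraries. It was 14.5, 11.97, 11.7 and 16.5 CPM with vehicle and 34.2, 42.4, 33.9 and 22.2 CPM with papain on the AhR-poor diet. T106 and T108 overlapped on the I3C diet, and no library did on the AhR-poor diet. Pfkfb3 rose by 1.19 ± 0.26 (edgeR adjusted p = 0.0022) and 1.28 ± 0.26 (edgeR adjusted p = 0.0015) on the log2 scale.

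Ldha (ENSMUSG00000063229, chr7:46841475-46855627, plus strand) had 474.5, 474.8, 452.3 and 650.4 CPM in the I3C vehicle libraries and 875.0, 1084, 972.0 and 970.9 CPM in the I3C papain libraries. It had 476.9, 467.9, 509.3 and 436.7 CPM with vehicle and 898.8, 796.8, 865.4 and 881.5 CPM with papain on the AhR-poor diet. The groups did not overlap on either diet, and T111 stood above the other I3C vehicle libraries. Ldha rose by a log2 fold change of 0.93 ± 0.10 (edgeR adjusted p = 8.6e-07) and 0.86 ± 0.10 (edgeR adjusted p = 3.7e-06). Without T111 the value on the I3C diet was 1.07, and Ldha was then called. Ldha has processed pseudogenes of nearly the same sequence, so its count is uncertain as far as the counting could split such reads.

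Most enzymes of the same chain rose with Slc2a1, Pfkfb3 and Ldha. Of the 25 genes of glucose uptake and glycolysis, 16 rose on each diet, where 12.7% (I3C) and 12.4% (AhR-poor) of all genes did. On the I3C diet 2 fell (Pfkm and Ldhb) and on the AhR-poor diet 3 (Pfkm, Pfkfb2 and Aldoc), where 12.9% and 10.1% of all genes did. The list's median log2 fold change was 0.74 on the I3C and 0.66 on the AhR-poor diet. Pgk1, which makes the first ATP of glycolysis, rose from 118.3 ± 15.0 to 278.2 ± 56.6 CPM (SD, n = 4) and from 106.5 ± 6.61 to 216.5 ± 17.6 CPM, with log2 fold changes of 1.23 and 1.02, the latter at 0.97 without T104 and 0.997 without T103. Pkm, the pyruvate kinase, rose from 922.3 ± 129.7 to 1605 ± 153.0 CPM and from 824.9 ± 32.9 to 1362 ± 41.0 CPM. Pfkm, the muscle form of phosphofructokinase, fell with log2 fold changes of -1.23 and -1.17. Ldhb, the lactate dehydrogenase subunit of oxidative tissues, fell from 11.4 ± 1.21 to 4.88 ± 1.5 CPM on the I3C diet and had 21.6 ± 5.68 and 15.6 ± 2.42 CPM on the AhR-poor diet, which did not pass.

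**Figure D3:**
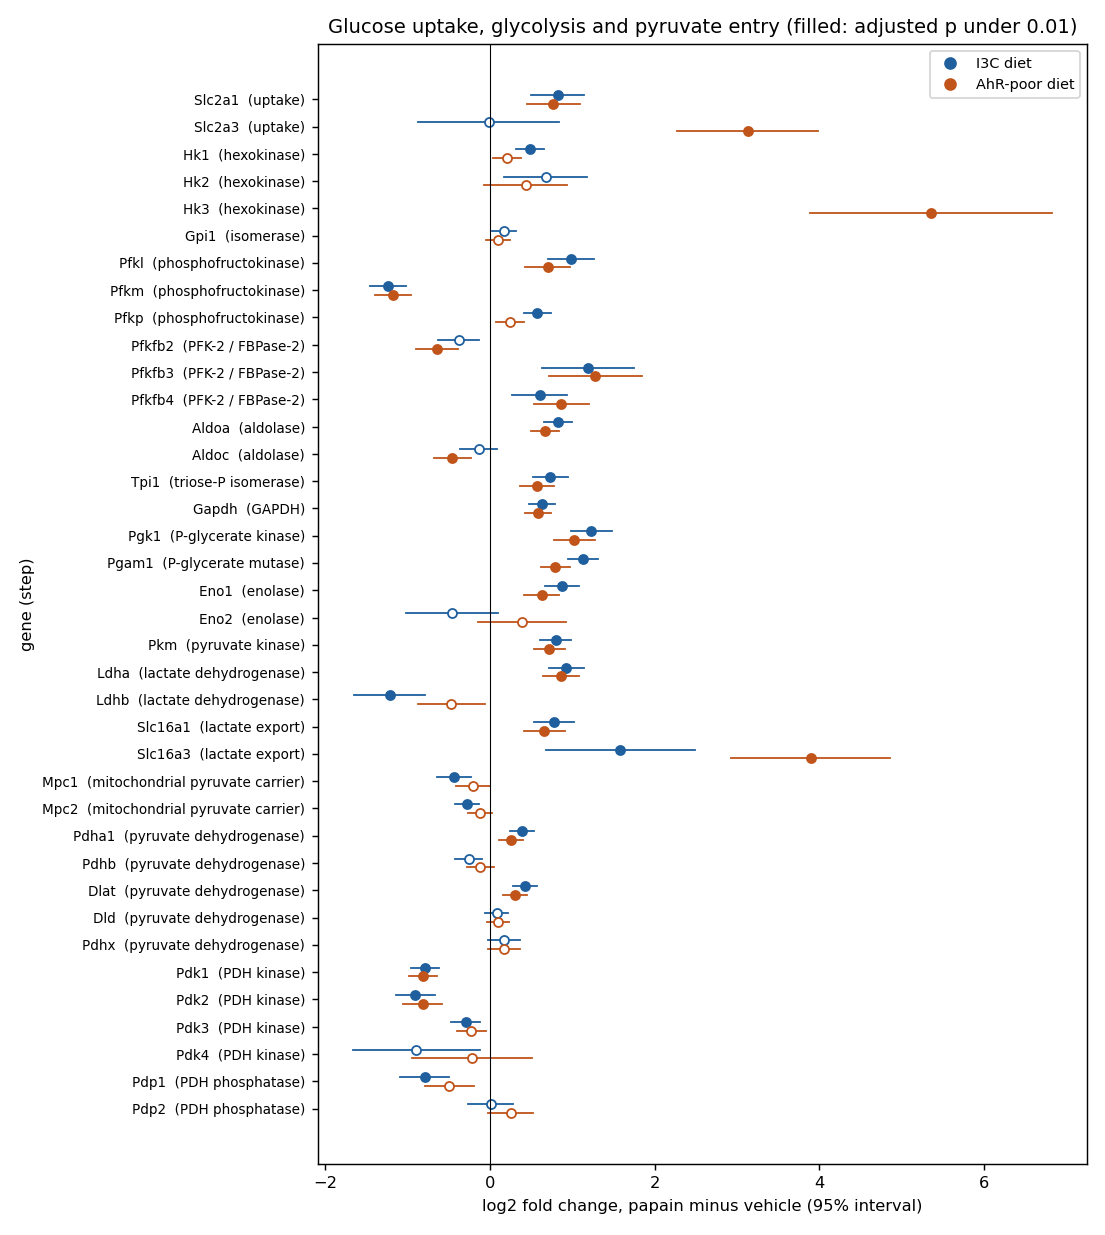
Log2 fold change of papain minus vehicle with 95% confidence intervals for the genes of glucose uptake, glycolysis, lactate export and pyruvate entry, ordered along the pathway, on the I3C and the AhR-poor diet, with filled points at an adjusted p below 0.01. Most points up to lactate export lie above 0 on both diets, Pfkm lies below 0 on both, and Slc2a3 and Slc16a3 lie farther to the right on the AhR-poor diet; Hk3 on the I3C diet is left out because its vehicle libraries were at the count floor.

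A few genes of the chain belong to leukocytes as well as keratinocytes. Slc2a3, the glucose transporter GLUT3 of neutrophils and macrophages, stood at 1.35 to 3.22 CPM in all 8 I3C libraries and at 1.83 to 2.15 CPM in the AhR-poor vehicle libraries, but at 19.0, 27.9, 18.2 and 5.66 CPM in the AhR-poor papain libraries T104, T105, T107 and T112. Its papain response differed between the diets by 3.14 on the log2 scale (edgeR interaction adjusted p = 0.034), but with 1 library left out the adjusted p ran from 1.7e-04 to 0.087 and was above 0.05 for 10 of the 16 libraries. Slc16a3, the lactate exporter MCT4, rose to 72.9 ± 40.2 CPM in the AhR-poor papain group, with 124.7 CPM in T105 and 26.5 CPM in T112. On the I3C diet its log2 fold change of 1.58 (edgeR adjusted p = 0.0088) no longer passed when any 1 of 12 libraries was left out. Hk3, the hexokinase of myeloid cells, was at 2.34 to 12.5 CPM in the AhR-poor papain libraries and under 0.44 CPM elsewhere. The summed neutrophil markers of T104, T105, T107 and T112 were 404.5, 668.3, 424.5 and 98.6 CPM and those of monocytes and macrophages 269.1, 530.7, 284.3 and 110.9 CPM. Both sums were highest in T105 and lowest in T112, as these 3 genes were. The same held for the sums of dermal fibroblast, mast cell, adipocyte and erythroid markers, so this order was not particular to leukocytes. The remaining marker lists, such as those of endothelial cells and T cells, had other orders. On the I3C diet the neutrophil sum went from 1.64 to 4.77 CPM with vehicle to 51.2 to 92.7 CPM with papain. The monocyte and macrophage sum was 19.3 to 28.4 and 11.3 to 38.5 CPM there, and Slc2a3 stayed within 1.35 to 3.22 CPM. The part of any of these cell types in the result was not tested.

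Pdk1 (ENSMUSG00000006494, chr2:71873224-71903858, plus strand) encodes a kinase that inhibits the pyruvate dehydrogenase complex of mitochondria, and it was the only member to fall. Its level was 82.3, 92.7, 85.3 and 97.3 CPM in the I3C vehicle libraries and 51.6, 53.4, 49.2 and 53.6 CPM in the I3C papain libraries. It was 80.3, 89.6, 70.7 and 78.7 CPM with vehicle and 45.1, 45.3, 41.1 and 50.5 CPM with papain on the AhR-poor diet. The spread within groups was small and no papain library reached a vehicle library. The log2 fold change was -0.78 ± 0.08 (edgeR adjusted p = 4.6e-07) on the I3C diet and -0.81 ± 0.08 (edgeR adjusted p = 6.3e-07) on the AhR-poor diet, and it passed in the same direction without any 1 of the 16 libraries.

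The next list holds 13 genes of pyruvate entry into mitochondria and of its use by pyruvate dehydrogenase. Of these 13, 2 rose and 6 fell on the I3C diet (12.7% and 12.9% of all genes did), and 2 rose and 2 fell on the AhR-poor diet (12.4% and 10.1%). Those that rose on both diets were Pdha1 and Dlat, subunits of the pyruvate dehydrogenase complex, and those that fell on both were Pdk1 and its paralog Pdk2. On the I3C diet the carriers Mpc1 and Mpc2, the kinase Pdk3 and the phosphatase Pdp1 fell too. Pdk4, the kinase of fasting, had log2 fold changes of -0.89 and -0.21, which did not pass, although the first was -1.35 (adjusted p = 0.0048) without T106. The list's median log2 fold change was -0.27 and -0.11.

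Counted over all 6 lists, 25 of the 78 genes that are not members rose and 16 fell on the I3C diet (12.7% and 12.9% of all genes did), and 25 rose and 12 fell on the AhR-poor diet (12.4% and 10.1%). The median log2 fold change of the 78 genes was 0.09 and 0.25.

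The members did not vary independently from library to library. In the I3C vehicle group T108 had the highest level of 8 of the 10 members, all but Ldha and Pdk1. It also had the highest sum of basal keratinocyte markers, 36416 CPM where the others had 28829 to 29927, and the lowest of suprabasal markers, 38108 CPM where the others had 49454 to 55309. In the I3C papain group T106 had the lowest and T113 the highest level of 9 members, all but Pdk1. T113 likewise had the highest basal sum, 25696 CPM, and the lowest suprabasal sum, 36061 CPM, of its group, and the part of these sums in the members' levels was not tested. In the AhR-poor vehicle group T103 was highest and T101 lowest for 6 members each. The 4 AhR-poor papain libraries shared the extremes more evenly, with no library highest for more than 3 members or lowest for more than 5. The labels give no batch for these libraries, and the 3 sequencing units named in the methods are not tied to them.

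**Figure D4:**
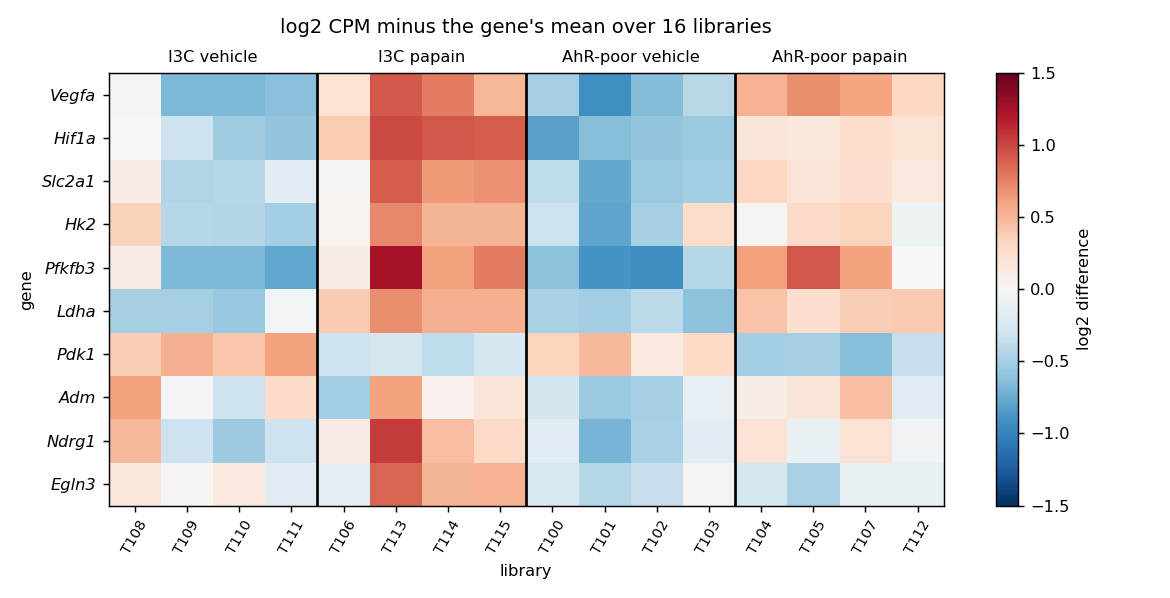
Each member's log2 CPM in the 16 libraries, shown as the difference from that gene's mean over all libraries, with libraries in columns by group. T108 stands out as high among the I3C vehicle libraries and T106 as low among the I3C papain libraries for most members, and Pdk1 runs opposite to the others.

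To see whether dietary AhR ligands changed the same genes, the AhR-poor diet was compared with the I3C diet within each injection. These comparisons use the same libraries as the papain comparisons. With vehicle, no member differed at an adjusted p below 0.01, where 1.72% of all genes were higher with the AhR-poor diet and 0% lower, or 1.59% and 0% beyond a log2 fold change of 1. In the fit of all libraries, all 10 log2 fold changes were below 0, with a median of -0.25 beside -0.01 for all genes, and they ran from -0.53 for Adm (edgeR adjusted p = 0.32) to -0.07 for Hk2. With 1 library left out, Vegfa, Hk2, Pfkfb3, Ldha and Ndrg1 reached 0.05, 0.18, 0.004, 0.02 and 0.03. T108 had the highest I3C vehicle level of 8 of the 10 members, so the 10 signs are not independent. For 3 members (Hif1a, Slc2a1 and Adm) the unadjusted p was below 0.05, where 3.54% of all genes reached that on the lower side. The vehicle groups of both diets overlapped in all 10 members, whereas 6.45% of all genes were higher and 1.67% lower without overlap.

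With papain, 2 of the 10 members were lower on the AhR-poor diet, Hif1a and Egln3, where 3.07% of all genes were, and none was higher, where 8.13% of genes were. None was beyond a log2 fold change of 1, against 0.0993% lower and 7.15% higher over all genes. Hif1a was 271.1 ± 7.88 CPM (SD, n = 4) on the AhR-poor and 416.4 ± 74.3 CPM on the I3C diet, a log2 fold change of -0.62 ± 0.13 (edgeR adjusted p = 0.0021), and all 4 AhR-poor libraries lay below all 4 I3C libraries. Hif1a was the 1 member without overlap, where 12.3% of all genes were lower and 12.5% higher without it. Egln3 was 100.6 ± 11.95 and 166.1 ± 44.8 CPM, a log2 fold change of -0.72 ± 0.16 (edgeR adjusted p = 0.0052), with T106 inside the AhR-poor range. Egln3 no longer passed without any 1 of T104, T105, T113, T114 and T115, with adjusted p-values of up to 0.017, nor with library sizes alone as scaling, with only genes of 10 or more counts in every library, or with the 8 papain libraries alone. Slc2a1 passed as well when T106 was left out, with a log2 fold change of -0.52 (adjusted p = 0.0039). Of the other members, the log2 fold changes ran from -0.45 for Ndrg1 to 0.02 for Adm, and the median of the 10 was -0.25 beside 0.01 for all genes.

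Of the 78 other genes, 14 were higher and 5 were lower with papain when AhR-poor food was given, beside the 8.13% and 3.07% of all genes, and 4 were higher and none was lower with vehicle, beside 1.72% and 0%. Their median log2 fold change with papain was -0.04, with 38 of the 78 above 0. Among the 25 genes of glucose uptake and glycolysis, 4 passed as higher and 3 as lower, and the list's median was -0.21 with 6 above 0. Kdr and Flt4, receptors of blood and lymphatic endothelium, were higher with log2 fold changes of 4.24 and 3.93 with vehicle and 5.47 and 5.11 with papain. Their levels with vehicle were 2.93 ± 1.42 and 8.22 ± 4.74 CPM on the AhR-poor diet and 0.146 ± 0.137 and 0.528 ± 0.376 CPM on the I3C diet. Ramp2 was higher by 1.46 and 3.14, and Calcrl by 2.21 with papain. With vehicle, Ramp2 no longer passed when any 1 of 8 libraries was left out (adjusted p up to 0.034), nor did Flt4 without T109 or T111 (adjusted p = 0.011 and 0.013). Beside these, the summed level of 8 endothelial markers, a list fixed for the cell type, was 0.771 to 2.70 CPM in the I3C libraries and 13.1 to 62.0 CPM in the AhR-poor libraries, and its part in the result was not tested. Ldhb and Pdk4 were higher with papain by 1.68 (edgeR adjusted p = 1.8e-05) and 2.20 (edgeR adjusted p = 6.9e-04). On the lower side, Egln1 was at 79.2 ± 1.41 against 99.7 ± 12.8 CPM with papain, a log2 fold change of -0.33 (edgeR adjusted p = 0.0089), and Hk1 at 145.5 ± 11.7 against 183.0 ± 16.6 CPM, a log2 fold change of -0.33 (edgeR adjusted p = 0.0073). With 1 library left out, their adjusted p-values reached 0.045 and 0.027.

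Whether the papain response itself differed between the diets was tested as an interaction. No member passed at an adjusted p below 0.05, and none reached an unadjusted p below 0.05, where 0.329% and 13.5% of all genes did. The members with the widest differences were Adm, with 0.55 ± 0.31 on the log2 scale (95% interval -0.11 to 1.22, edgeR adjusted p = 0.46), Egln3, with -0.45 ± 0.23 (-0.94 to 0.05, edgeR adjusted p = 0.42), and Hif1a, with -0.31 ± 0.18 (-0.69 to 0.07, edgeR adjusted p = 0.48). The interval of Vegfa ran from -0.46 to 0.54 and that of Ldha from -0.36 to 0.24, so these libraries leave room for differences of that size between the diets. Of the 78 other genes, Slc2a3 and Nrp2 passed. The Nrp2 response was smaller on the AhR-poor diet by 1.16 (edgeR interaction adjusted p = 0.049, from 0.021 to 0.12 with 1 library left out and above 0.05 for 14 of the 16), with vehicle levels of 16.3 ± 2.83 against 7.83 ± 1.22 CPM. The Nrp2 difference also missed the threshold with RLE factors (adjusted p = 0.060), with library sizes alone (0.068), with only genes of 10 or more counts in every library (0.054) and without a filter beyond 1 count (0.065), and that of Slc2a3 with the last of these (0.051).

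Cyp1a1, the classical AhR target, was read in the same libraries. It stood at 1.49 ± 0.92 CPM in the I3C vehicle and 1.22 ± 0.61 CPM in the AhR-poor vehicle group, a log2 fold change of -0.30 (edgeR adjusted p = 0.88). With papain it was 0.235 ± 0.162 CPM on the I3C and 1.67 ± 0.43 CPM on the AhR-poor diet, higher on the AhR-poor diet by 2.79 on the log2 scale (edgeR adjusted p = 9.2e-04). Nqo1, a target of AhR and of the oxidant sensor NRF2, rose with papain by 2.32 and 2.35 and did not differ between the diets at the threshold. Cyp1b1, another AhR target, was also higher on the AhR-poor diet with papain. With 1 library left out its log2 fold change was 1.29 to 1.73. Fibroblast marker sums with papain were 11.9 to 25.8 CPM on the I3C and 277.2 to 666.4 CPM on the AhR-poor diet. Endothelial sums were 0.771 to 2.095 and 25.3 to 62.0 CPM, and the part of such cells in these differences was not tested.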

How the data were processed

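RNA was sequenced from 16 footpad epidermal samples with a stranded mRNA kit on 3 sequencing units. According to the methods and the submitters' processing notes, the authors checked reads with FastQC and aligned them with STAR to mm10; the counter, annotation release and strand setting are not given in the sources used here. The deposited values are raw read counts per Ensembl gene, 1 column per library, and no column was left unused. Symbols, exons and coordinates came from GENCODE M21 (GRCm38), which held 50376 of the 50600 identifiers, and Figf is listed there as Vegfd. Each library is 1 mouse, so p-values measure the spread between mice. No pair of libraries of the same group agreed within sampling noise (the lowest chi-square per degree of freedom was 10.2), and pairs across groups were not examined.

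Genes with at least 10 counts in all (22155) were fitted with edgeR 4.0.16 in R 4.3.3: TMM scaling (factors 0.937 to 1.07), robust quasi-likelihood, 1 model of the 4 groups, Benjamini-Hochberg adjustment over all genes tested, and thresholds of 0.01 for the adjusted p and 1 for the absolute log2 fold change. The interaction threshold was 0.05. The floor of 3 counts is 0.0569 to 0.13 CPM. With 4 against 4 libraries the smallest two-sided exact permutation p is 0.0286. On simulated counts of 21787 genes, 200 of 200 changed genes were recovered in each papain comparison and 0 unchanged genes were called. Recovery at fold changes as small as those of the members was not tested. Levels per length used merged exons. The alternatives were DESeq2 1.42.0, other scalings, filters and thresholds, only the 8 libraries compared, and leaving out each library.

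The members and gene lists were chosen with earlier results of these data known. Named beside the members were Epas1, Arnt, Vhl, Egln1, Slc2a3, Hk1, Pgk1, Pkm, Slc16a3, Pdk4, Car9, Bnip3, Ankrd37, Calcrl, Ramp2, Flt1, Kdr and Cyp1a1, and up to 4 called genes per list with the largest fold change, a mean of at least 1 CPM and groups that did not overlap. Egln2, Siah1a, Vegfb, Pfkfb2, Aldoc, Pdha1, Dlat, Pdk2, Pdk3, Pdp1, Mpc1 and Mpc2 were named after their values were seen. Marker lists were summed per library.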

Additional observations from a re-analysis of the deposited data

Results flagged for a closer look

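For 6 of the 40 sets of 4 libraries (10 members in 4 groups), 1 library lay far from the other 3; chance marks about 1 set in 20. In the I3C vehicle group T108 was the high library for Vegfa, with 79.31 CPM where the others had 51.12 to 53.22, for Hk2, with 184.2 CPM (others 102.2 to 107.9), for Pfkfb3, with 24.12 CPM (others 12.97 to 13.93), and for Ndrg1, with 271.9 CPM (others 132.5 to 155.9). In the same group T111 was the high library for Ldha, with 650.4 CPM (others 452.3 to 474.8). In the I3C papain group T106 was the low library for Hif1a, with 306.2 CPM (others 440.9 to 468.1). The papain comparisons on the I3C diet without these libraries stand in the report beside each gene whose call they changed.

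The papain response of 2 genes outside the members differed between the diets by the interaction test of edgeR. That of Slc2a3 was larger on the AhR-poor diet by 3.14 on the log2 scale (adjusted p = 0.0336, above 0.05 without any 1 of 10 libraries), and all 4 AhR-poor papain libraries were above all others. That of Nrp2 on the AhR-poor diet minus that on the I3C diet was -1.16 on the log2 scale (adjusted p = 0.0493, above 0.05 without any 1 of 14 libraries), and its vehicle level was higher on the AhR-poor diet in 4 of 4 libraries.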

How the results depend on the processing

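No paired analysis was possible because the groups share no replicate codes. Counting calls beyond a log2 fold change of 1, members kept their direction and side of the threshold in 421 combinations of gene, comparison and setting, with 9 gained, all with no minimum fold change, and in 797 with 1 library left out, with 1 gained and 2 lost; none reversed where either fit had an unadjusted p below 0.05. Members' fold changes near 0 changed sign 55 times. With no minimum fold change, members higher after papain went from 3 to 5 (I3C) and from 2 to 5 (AhR-poor), members lower from 0 to 1 on both diets, members lower on the AhR-poor diet with papain from 0 to 2, other listed genes higher to 25 on both diets and lower to 16 (I3C) and 12 (AhR-poor), and other listed genes lower on the AhR-poor diet with papain from 0 to 5. Leaving out 1 library gave 1 to 4 members higher on the I3C diet (1 without T113) and 2 to 2 on the AhR-poor diet. Other listed genes then ranged from 7 to 11 higher and 5 to 6 lower (I3C), 7 to 13 higher (7 without T103 or T104) and 3 to 3 lower (AhR-poor), 1 to 6 higher on the AhR-poor diet with vehicle (1 without T109, 2 without T100, T110 or T111) and 8 to 15 with papain. Keeping the genes whose 16 libraries each had 10 counts or more gave 1 in place of 4 with vehicle and 6 in place of 11 with papain; fewer low genes were tested there, but Ramp2 with vehicle was tested and lost (adjusted p = 0.021). Counted at any fold, a setting added after seeing the data, members higher on the I3C diet were 8 in place of 5 at an adjusted p below 0.05 and 7 by DESeq2, with Hk2 and Ndrg1 (5 to 7 with 1 library left out), and members lower on the AhR-poor diet with papain were 1 in place of 2 with library sizes alone, with that filter and with only the 8 libraries compared (1 to 3 with 1 library left out, 1 without T104, T105, T113, T114 or T115); the cause was not tested. Precision was limited by 4 libraries a group rather than by depth for the members, and by counts for Hk3, Kdr and Cyp1a1.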
